A study of Mus musculus with 8 samples.

Results

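Hematopoietic stem cells (HSCs) taken from mouse fetal liver at E14.5 were compared with pre-HSCs taken from the embryo at E11.5, 3 days of development earlier. The comparison rests on 5 of the 8 libraries of the series, 2 from FL-HSC (FL, fetal liver) and 3 from pre-HSC. Its members are the genes that reached 1 FPKM in at least 2 of these 5 libraries, which left 13194 genes for testing of 33504 in the deposited table. FPKM, fragments per kilobase scaled to library depth, is a level corrected for gene length and library size.

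All libraries carry the background C57BL/6J and the label hematopoietic stem cells. Per the labels' protocols, embryos came from wild-type C57BL/6J mothers and from fathers that were either wild type or carried the Ly6a-GFP reporter transgene, which is driven by regulatory sequence of the gene for Sca-1. Which libraries held the transgene, how many embryos were pooled, and the sort gates are not given. PD-1 null and NSG mice are also mentioned, tied to no library here. The other 3 libraries, ex-HSC, are labelled in vitro, and were read as cells from the 4-day reaggregate culture with OP9 stroma, SCF, IL-3 and Flt3L that the protocols describe. Nothing in the labels says that replicates came from separate litters, so p-values measure the spread between these libraries only.

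Blood stem cells of the embryo do not arise in the liver. They bud from specialised endothelium in the wall of the large arteries, under the transcription factor Runx1, pass through a pre-HSC state that still shows vessel wall proteins, and then travel in the blood to the liver. There they divide, and red cells, megakaryocytes, granulocytes and macrophages form around them. A comparison across these stages therefore sets vessel genes, blood genes and genes of the neighbouring cells beside each other, and in sorted bulk RNA fewer cells of a type and less RNA per cell cannot be told apart.

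About 50.7% of the genes tested differed between the stages. With limma on log2(FPKM + 1) and an adjusted p under 0.05, 3753 genes rose in FL-HSC (28.4% of those tested) and 2936 fell (22.3%). The falls were the larger changes: 900 of the genes that fell moved by at least 2 on the log2 scale, against 333 of those that rose, and 195 against 28 moved by at least 4. In FL-HSC 242 of the genes that fell were listed at 0 in both libraries, and 20 of the genes that rose were listed at 0 in all 3 pre-HSC libraries. For all 3753 rises and all 2936 falls the libraries of the stages did not overlap, so separation adds nothing to a call. The median change over all genes tested was 0.15 on the log2 scale. Median-of-ratios scaling brought it to 0.00, and then 2790 genes rose and 3358 fell, so the share of rises among called genes depended on scaling, at 56.1% as deposited and 45.4% scaled.

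**Figure D1:**
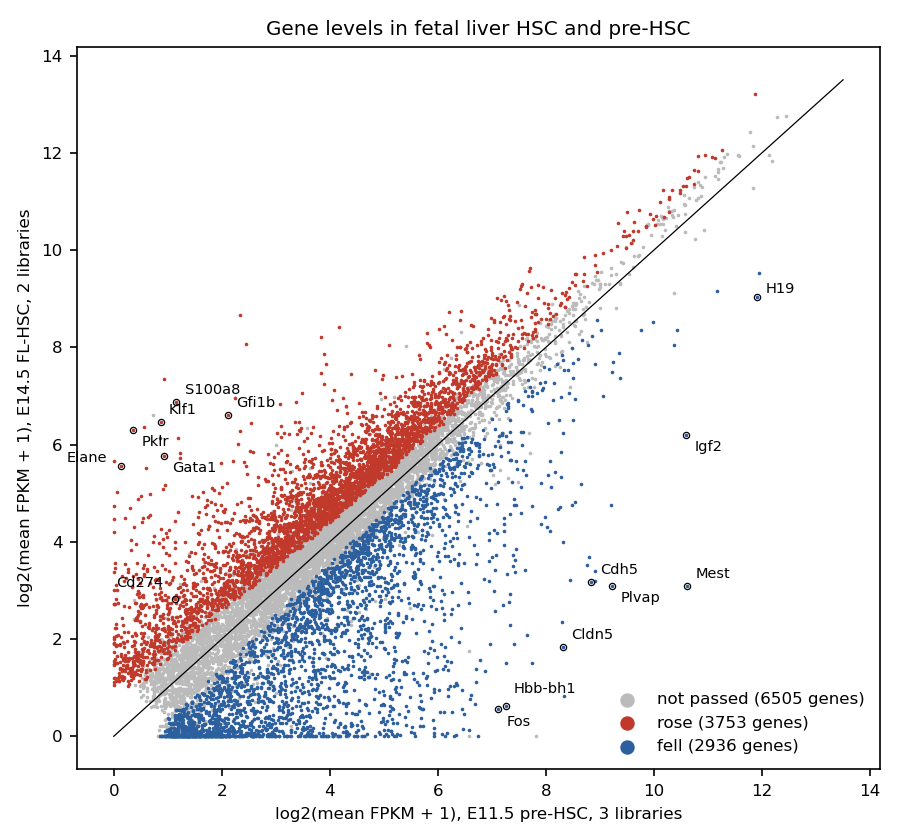
Each point is 1 of the genes tested, with its mean level in 3 pre-HSC libraries on the horizontal axis and in 2 FL-HSC libraries on the vertical axis, both as log2(mean FPKM + 1), and the line marks equal levels. Red points rose (3753), blue points fell (2936) and grey points did not pass (6505), and the circled genes are described in the text.

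Library facts bear on some of what follows. Between 11704 and 12757 genes per library reached 1 FPKM, the depth is unknown, and r across genes (log2 scale) was 0.958 to 0.973 within a stage and 0.784 to 0.805 between stages. The defining HSC markers Kit, Procr, Cd34, Mecom and Hlf were above 5 FPKM in all 5 libraries. Summed FPKM of 43 endothelial markers was 6194 to 6823 in pre-HSC and 922 to 1016 in FL-HSC, and that of 39 stromal markers 2420 to 2891 and 185 to 204. Macrophage markers varied within each stage more than the others, with sums over 19 genes of 810.1, 312 and 1619.5 in pre-HSC replicates 1 to 3 and of 646 and 146 in FL-HSC replicates 1 and 2. Hepatocyte markers summed to 146 to 209 FPKM in pre-HSC and 110.45 to 189 in FL-HSC.

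**Figure D2:**
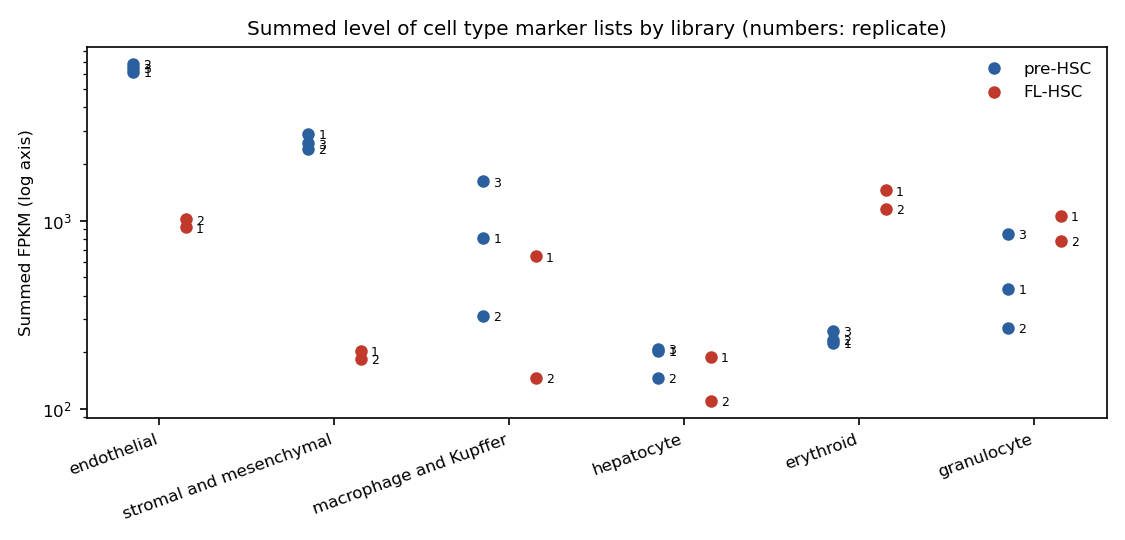
Summed FPKM of 6 marker lists in each pre-HSC (blue) and FL-HSC (red) library, on a log axis, with the replicate number beside each point. Endothelial, stromal and erythroid sums separate the stages, while macrophage, granulocyte and hepatocyte sums overlap. Macrophage sums ran from 312 to 1619.5 in pre-HSC and from 146 to 646 in FL-HSC, and granulocyte sums from 270 to 849 and from 783 to 1062.

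The series title names PD-L1, a ligand of the inhibitory receptor PD-1, encoded by Cd274. Cd274 stood at 1.07, 1.35 and 1.15 FPKM in pre-HSC and 5.07 and 7.02 in FL-HSC. The groups did not overlap, as for every called gene. Cd274 rose (limma log2 change 1.68 ± 0.21, adjusted p = 0.00135), a 5.09-fold difference of the means. Against ex-HSC it did not pass in the limma fit of all 8 libraries (log2 difference -0.19 ± 0.32, adjusted p = 0.687). Means there were 6.05 FPKM in FL-HSC and 7.43 in ex-HSC. Pdcd1lg2, which encodes the other PD-1 ligand, stood at 0.0543, 0.156 and 0.0583 FPKM in pre-HSC and 2.83 and 2.54 in FL-HSC and rose as well (limma log2 change 1.76 ± 0.20, adjusted p = 0.000876). Pdcd1lg2 reached the level for testing through FL-HSC alone, so a rise was the only likely call. Pdcd1, the receptor gene, was listed at 0 in both FL-HSC libraries and at 0.140 FPKM or less in pre-HSC, under the level needed for testing. Ly6a, the Sca-1 gene, stood at 6.83, 7.09 and 3.57 FPKM in pre-HSC and 3.90 and 9.99 in FL-HSC, so the stages overlapped and it did not pass (limma log2 change 0.15 ± 0.42, adjusted p = 0.784). Among 23 tested of 40 listed checkpoint and costimulation genes, 10 rose, 7 fell and 6 missed the threshold. Rises made up 43.5% and falls 30.4%, beside 28.4% and 22.3% over all genes. Checkpoint genes had a median log2 fold change of -0.09, against 0.032 without pre-HSC replicate 1, -0.56 without pre-HSC replicate 2, 0.24 without pre-HSC replicate 3, -0.61 without FL-HSC replicate 1 and with FL-HSC replicate 2 left out 0.42. The largest rise in that list was in Tnfrsf14, the gene of the herpesvirus entry mediator, which binds the inhibitory receptor BTLA. Tnfrsf14 went from 4.80 ± 1.14 to 85.7 ± 0.367 FPKM (limma log2 change 3.92 ± 0.20, adjusted p = 4.81e-05). Cd27, a costimulatory receptor gene of early blood cells, went from 7.52 ± 3.26 to 57.8 ± 11.7 FPKM, and Tnfrsf18, the gene of the costimulatory receptor GITR, from 0.672 ± 0.397 to 10.2 ± 4.03 FPKM. Cd40, the receptor gene of CD40 ligand, had the largest fall there, at 38.1, 34.2 and 26.5 FPKM in pre-HSC and 0 and 0.182 in FL-HSC (limma log2 change -4.95 ± 0.21, adjusted p = 2.74e-05).

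Vessel genes fell, with the lowest median of the 36 lists. Of 42 tested of 45 listed endothelial genes, 2 rose, 38 fell and 2 missed the threshold, and the same counts came out of each fit with 1 library left out. Endothelial genes had a median log2 fold change of -3.78. Falls made up 90.5%, beside 22.3% over all genes. In pre-HSC 42 of the 43 in the table averaged 1 FPKM or above and in FL-HSC 32 did, so some reached the level for testing mainly through pre-HSC. Cldn5, which seals junctions between vessel cells, stood at 284, 330.4 and 335 FPKM in pre-HSC and 3.68 and 1.43 in FL-HSC. Cldn5 fell (limma log2 change -6.55 ± 0.27, adjusted p = 2.67e-05), and the stages did not overlap, as for every called gene. Kdr, which encodes the main VEGF receptor of vessels, stood at 223, 238 and 183 FPKM in pre-HSC and 2.19 and 1.47 in FL-HSC (limma log2 change -6.25 ± 0.18, adjusted p = 1.49e-05). Aplnr, the apelin receptor gene of growing vessels, fell as well (log2 change -7.52 ± 0.16), and Plvap, whose product forms diaphragms in capillary walls, went from 599 ± 20.2 to 7.54 ± 2.65 FPKM. Mmrn2, a matrix gene of blood vessels, went from 89.0 ± 6.72 to 0.374 ± 0.00631 FPKM.

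The fall was not even across vessel genes. Of the 38 that fell, 20 kept less than 5% of their mean pre-HSC level, 7 kept 20% or more, and 12 were still at 10 FPKM or more in both FL-HSC libraries. Egfl7, a secreted factor of vessel and stem cells, went from 649 ± 56.8 to 236 ± 25.9 FPKM, and Eng, the gene of the TGF-beta co-receptor endoglin, from 188 ± 7.67 to 62.6 ± 5.96 FPKM. Tie1, an orphan receptor kinase gene, went from 267 ± 16.2 to 49.6 ± 4.99 FPKM, and the adhesion gene Esam from 175 ± 10.4 to 44.4 ± 5.998 FPKM. The ETS factor genes Erg and Fli1, active in both vessel and blood cells, did not pass (limma log2 change 0.41 ± 0.19, adjusted p = 0.114 for Erg, and limma log2 change -0.10 ± 0.14, adjusted p = 0.563 for Fli1). The list members that rose were Tal1, a blood and vessel transcription factor gene (from 21.5 ± 1.74 to 59.3 ± 5.96 FPKM), and the adhesion receptor gene Eltd1 (from 52.8 ± 10.4 to 109 ± 0.888 FPKM).

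**Figure D3:**
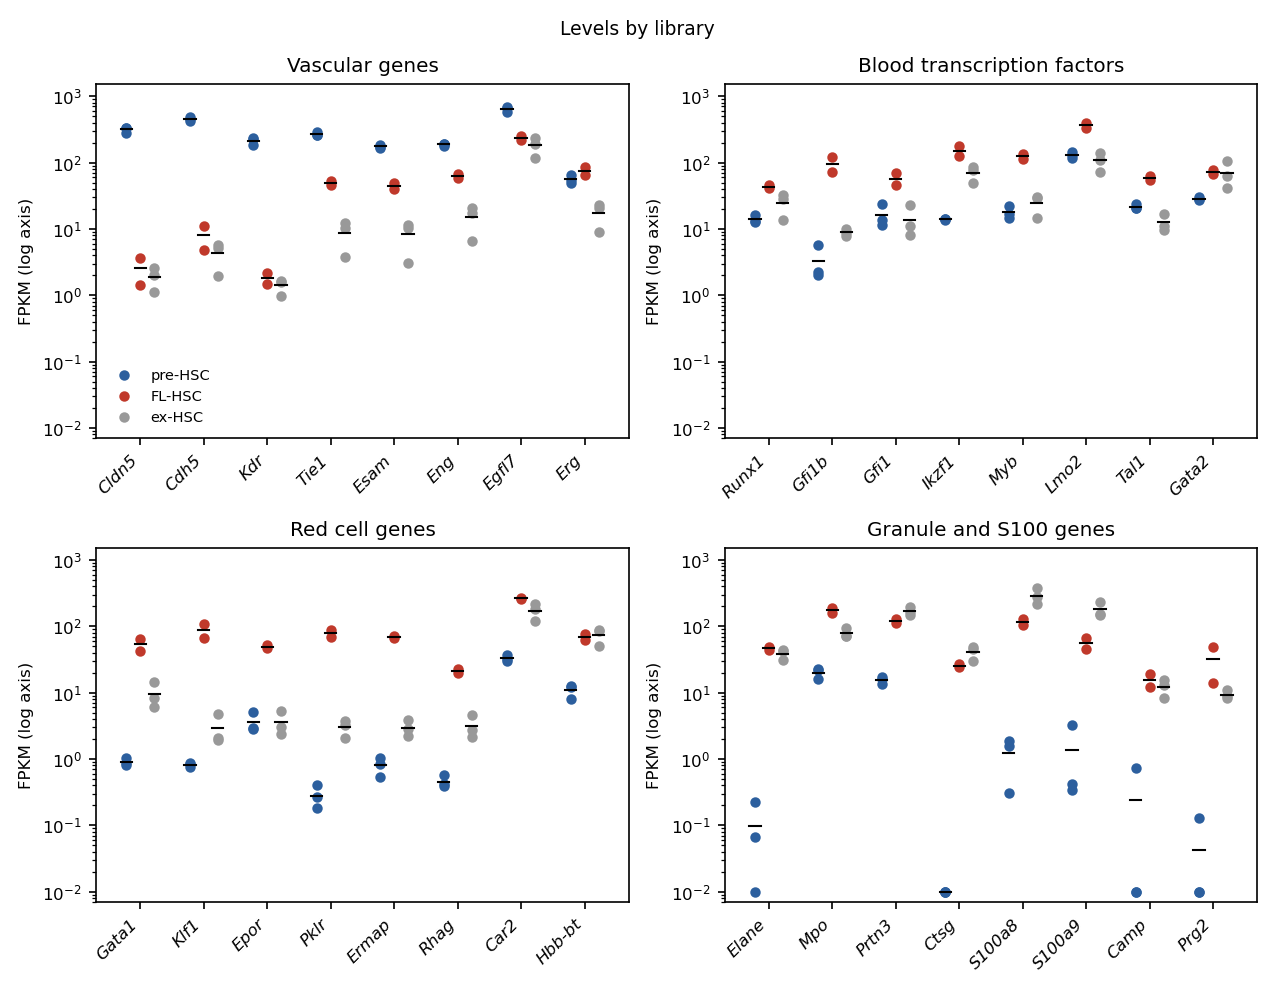
FPKM of 32 genes in each pre-HSC (blue), FL-HSC (red) and ex-HSC (grey) library on a log axis, with a black bar at each group's mean and values of 0 drawn at 0.01. Cldn5, Cdh5 and Kdr sit under 12 FPKM in FL-HSC, Tie1, Esam, Eng and Egfl7 above 40 FPKM, and Klf1, Pklr and Ermap separate FL-HSC from both other groups.

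Artery and Notch pathway genes followed the vessel genes with exceptions. Notch signalling, in which ligands on a cell trigger cleavage of receptors on its neighbour, sets arterial fate and is needed for HSC emergence. Of 29 tested of 30 genes, 4 rose, 23 fell and 2 missed the threshold. Falls made up 79.3%, beside 22.3% over all genes. In pre-HSC 29 of the 30 averaged 1 FPKM or above and in FL-HSC 16 did, so many reached the level for testing mainly through pre-HSC. Arterial and Notch pathway genes had a median log2 fold change of -1.98. The ligand genes Dll1, Dll4 and Jag1 fell, with Dll1 at 24.9, 22.2 and 17.2 FPKM in pre-HSC and 0.132 and 0 in FL-HSC (limma log2 change -4.38 ± 0.21, adjusted p = 4.14e-05), and Dll4 going from 12.8 ± 1.80 to 0.744 ± 0.395 FPKM and Jag1 from 17.2 ± 0.293 to 0.194 ± 0.0597 FPKM. Nrp1, a co-receptor gene for VEGF and semaphorins, went from 49.6 ± 2.61 to 0.794 ± 0.743 FPKM, and Efnb2, the arterial ephrin ligand gene, from 46.1 ± 6.75 to 1.26 ± 0.680 FPKM. The Notch target gene Hes1 fell from 35.1 ± 9.19 to 1.73 ± 0.973 FPKM. Receptor genes split: Notch4 fell from 35.1 ± 6.46 to 1.496 ± 0.218 FPKM and Notch1 from 24.1 ± 3.27 to 13.4 ± 2.72 FPKM (adjusted p = 0.0127, and 0.0548 without FL-HSC replicate 2), while Notch2 rose from 4.14 ± 0.913 to 14.9 ± 1.49 FPKM (limma log2 change 1.64 ± 0.21, adjusted p = 0.00148). Also higher in FL-HSC were Cxcr4, the receptor gene by which stem cells follow CXCL12 (from 8.14 ± 2.87 to 26.9 ± 0.520 FPKM), and the Notch glycosyltransferase genes Lfng and Rfng. The call of Lfng was lost without pre-HSC replicate 1 (limma adjusted p = 0.0970), without pre-HSC replicate 2 (0.0908), without FL-HSC replicate 1 (0.130) and with median-of-ratios scaling (0.0859), and that of Rfng without FL-HSC replicate 1 (0.0526). Mfng and Maml3 did not pass.

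Most genes that act as endothelium turns into blood rose. Of 27 tested of 28, 20 rose, 1 fell and 6 missed the threshold. These transition genes had a median log2 fold change of 1.49. Runx1 itself stood at 12.6, 13.1 and 16.1 FPKM in pre-HSC and 41.7 and 45.3 in FL-HSC (limma log2 change 1.58 ± 0.15, adjusted p = 0.000496). Its relative Runx3 showed a larger difference, from 0.594 ± 0.285 to 22.6 ± 6.98 FPKM (limma log2 change 3.87 ± 0.27, adjusted p = 0.000136). Gfi1b, a repressor that shuts off endothelial genes in new blood cells, stood at 2.28, 5.70 and 2.04 FPKM in pre-HSC and 119 and 72.8 in FL-HSC (limma log2 change 4.54 ± 0.40, adjusted p = 0.000336), and its close relative Gfi1 went from 16.4 ± 6.82 to 57.3 ± 17.1 FPKM. Ikzf1, the gene of the lymphoid regulator Ikaros, went from 13.9 ± 0.162 to 151 ± 34.9 FPKM (limma log2 change 3.33 ± 0.16, adjusted p = 4.22e-05). Nfe2, a factor gene of megakaryocytes and red cells, went from 15.98 ± 3.75 to 138 ± 10.97 FPKM and Spn, the gene of the leukocyte surface protein CD43, from 9.86 ± 1.41 to 76.7 ± 6.38 FPKM. Myb, needed for definitive blood formation, went from 17.8 ± 3.86 to 123 ± 14.2 FPKM, and Lmo2, a bridge in the Tal1 complex, from 130.1 ± 13.4 to 367 ± 44.95 FPKM. Cbfb, the gene of the Runx partner, fell from 66.8 ± 4.55 to 48.4 ± 6.13 FPKM, and its call was lost in 3 fits that left out a library (adjusted p of 0.107, 0.0924 and 0.0955 without pre-HSC replicate 1, pre-HSC replicate 2 and FL-HSC replicate 1).

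Stem cell genes moved in both directions. Of 45 tested of 46, 20 rose, 16 fell and 9 missed the threshold. Rises made up 44.4% and falls 35.6%, beside 28.4% and 22.3% over all genes. These stem cell genes had a median log2 fold change of 0.41, against 0.25 without pre-HSC replicate 3 and -0.017 without FL-HSC replicate 2. Hlf, a transcription factor gene that marks HSCs, stood at 7.45, 10.1 and 5.95 FPKM in pre-HSC and 58.1 and 91.7 in FL-HSC (limma log2 change 3.09 ± 0.27, adjusted p = 0.000350). Slamf1, the gene of CD150, stood at 0.360, 0.636 and 0.959 FPKM in pre-HSC and 13.001 and 16.8 in FL-HSC (limma log2 change 3.27 ± 0.24, adjusted p = 0.000169). Slamf1 reached the level for testing through FL-HSC alone, so a rise was the only likely call. Kit, the stem cell factor receptor gene, went from 35.5 ± 3.18 to 117 ± 18.3 FPKM. Procr and Cd34, which encode the surface proteins EPCR and CD34, fell, Procr from 121 ± 16.8 to 53.998 ± 15.4 FPKM (limma log2 change -1.16 ± 0.21, adjusted p = 0.00526) and Cd34 from 279 ± 28.8 to 120.4 ± 6.37 FPKM (limma log2 change -1.20 ± 0.14, adjusted p = 0.000913). In the fit of all 8 libraries the call of Procr was lost (limma adjusted p = 0.0704). Sox17, the SoxF gene needed in hemogenic endothelium, stood at 32.2, 45.7 and 33.4 FPKM in pre-HSC and 0 and 0.0669 in FL-HSC (limma log2 change -5.19 ± 0.21, adjusted p = 2.27e-05), and Cdkn1c, the gene of the cell cycle inhibitor p57, went from 239.8 ± 20.3 to 36.2 ± 1.48 FPKM. Because the gates are not given, values of genes whose proteins are sort markers cannot be told apart from the sort.

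Red cell genes had the highest median of the 36 lists. Of 31 tested of 32 listed, 28 rose, 0 fell and 3 missed the threshold. Erythroid genes had a median log2 fold change of 2.39. Of the 31 found in the table, 16 averaged 1 FPKM or above in pre-HSC and 31 did in FL-HSC, so many had little room to fall. Klf1, a factor that drives most of the red cell program, stood at 0.837, 0.757 and 0.873 FPKM in pre-HSC and 107 and 66.6 in FL-HSC (limma log2 change 5.55 ± 0.23, adjusted p = 2.67e-05). Gata1, which commits cells to the red cell and megakaryocyte lines, stood at 0.871, 1.05 and 0.799 FPKM in pre-HSC and 64.7 and 42.6 in FL-HSC (limma log2 change 4.81 ± 0.22, adjusted p = 3.47e-05). The stages did not overlap for either gene, as for every called gene, and Klf1 reached the level for testing through FL-HSC alone. Epor, the erythropoietin receptor gene, went from 3.63 ± 1.30 to 49.5 ± 4.63 FPKM, and the membrane protein genes Ermap, Rhd and Icam4 went from 0.801 ± 0.257 to 68.8 ± 2.38 FPKM, from 0.879 ± 0.158 to 32.8 ± 6.77 FPKM and from 0.583 ± 0.477 to 30.6 ± 11.1 FPKM. Outside the list, Pklr, which encodes the pyruvate kinase of liver and red cells, had the largest rise of the 10 named for size, with 0.263, 0.180 and 0.400 FPKM in pre-HSC and 86.8 and 69.7 in FL-HSC (limma log2 change 5.95 ± 0.19, adjusted p = 1.49e-05), and Cited4, a coactivator gene, went from 1.28 ± 0.341 to 69.1 ± 21.7 FPKM. The list members that missed the threshold were Alas2, the first heme enzyme of red cells (2.43, 2.16 and 1.71 FPKM in pre-HSC and 1.81 and 0.811 in FL-HSC), Slc4a1, the gene of band 3 (2.73, 3.54 and 2.41 FPKM in pre-HSC and 7.29 and 1.81 in FL-HSC), and Ppox, a later heme enzyme gene (16.4, 13.9 and 16.2 FPKM in pre-HSC and 18.99 and 17.2 in FL-HSC).

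The 10 genes with the largest rises, chosen on the same FL-HSC values, were also set against the cultured cells, and 5 of them were higher in FL-HSC. In the fit of all 8 libraries Pklr was higher in FL-HSC than in ex-HSC (log2 difference 4.31 ± 0.25, adjusted p = 1.10e-06), as were Klf1 (log2 difference 4.53 ± 0.32, adjusted p = 3.88e-06), Ermap (log2 difference 4.16 ± 0.25, adjusted p = 1.13e-06), Cited4 (log2 difference 3.79 ± 0.37, adjusted p = 3.34e-05) and Gata1 (log2 difference 2.41 ± 0.32, adjusted p = 0.000283). For comparison, 25.3% of the genes tested were higher in FL-HSC than in ex-HSC and 7.42% lower.

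Globin genes form clusters that switch from embryonic to adult members. Of 7 tested of 12, 1 rose, 3 fell and 3 missed the threshold. Globin genes had a median log2 fold change of -1.72, against -2.86 without FL-HSC replicate 1 and with FL-HSC replicate 2 left out -0.59. Hbb-bh1, Hba-x and Hbb-y, the embryonic forms, fell. Hbb-bh1 stood at 131, 192 and 132 FPKM in pre-HSC and 1.09 and 0 in FL-HSC (limma log2 change -6.70 ± 0.34, adjusted p = 4.74e-05), Hba-x at 138, 203 and 142 FPKM in pre-HSC and 6.63 and 1.07 in FL-HSC and Hbb-y at 501, 663 and 601 FPKM in pre-HSC and 46.01 and 5.71 in FL-HSC. FL-HSC replicate 1 was the higher of the FL-HSC libraries for all 3, and pre-HSC libraries stayed above it. Of 4 adult genes only Hbb-bt rose, from 8.07, 12.7 and 12.05 FPKM to 76.6 and 61.8 (limma log2 change 2.57 ± 0.22, adjusted p = 0.000310), and Hbb-bs, Hba-a1 and Hba-a2 did not pass (0.0502, 0.300 and 0.0617 as adjusted p). Without FL-HSC replicate 1 the adult Hba-a1 and Hba-a2 fell too (adjusted p = 0.0121 and 0.00478), and without FL-HSC replicate 2 Hbb-bs rose (0.0184). The adult genes summed to 78.2, 129.0 and 116 FPKM in pre-HSC and 215.9 and 98.0 in FL-HSC, so the stages overlapped. Embryonic forms made up 90.8%, 89.1% and 88.3% of the summed FPKM of these 7 globin genes in pre-HSC, against 19.9% and 6.47% in FL-HSC. Globin copies share sequence, and how shared reads were assigned is not stated.

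Granule genes of early granulocytes and the S100 genes were higher in FL-HSC. Of 29 tested of 34, 20 rose, 2 fell and 7 missed the threshold. Granulocyte genes had a median log2 fold change of 1.68. Of 33 found in the table, 16 averaged 1 FPKM or above in pre-HSC and 30 did in FL-HSC. Many therefore reached the level for testing mainly through FL-HSC and had little room to fall. With a filter of 5 FPKM, 13 of 20 rose and 2 fell. Summed over the list, the stages overlapped, at 433, 270 and 849 FPKM in pre-HSC and 1062 and 783 in FL-HSC. S100a8, which encodes a calcium-binding protein of neutrophils, stood at 0.307, 1.55 and 1.85 FPKM in pre-HSC and 129 and 104 in FL-HSC (limma log2 change 5.78 ± 0.36, adjusted p = 8.88e-05), and its partner S100a9 at 0.342, 0.420 and 3.30 FPKM in pre-HSC and 67.1 and 44.8 in FL-HSC (limma log2 change 4.79 ± 0.54, adjusted p = 0.000878). Elane, the neutrophil elastase gene, stood at 0.0675, 0.222 and 0 FPKM in pre-HSC and 48.3 and 44.4 in FL-HSC (limma log2 change 5.44 ± 0.19, adjusted p = 1.64e-05), and Ctsg, the cathepsin G gene, was listed at 0 in all pre-HSC libraries and at 27.0 and 24.1 FPKM in FL-HSC. Mpo, which encodes myeloperoxidase, went from 20.1 ± 3.596 to 175 ± 21.2 FPKM, and Prtn3, the proteinase 3 gene, stood at 13.3, 15.9 and 17.2 FPKM in pre-HSC and 127 and 114 in FL-HSC. Prg2, an eosinophil granule gene, was at 0.128, 0 and 0 FPKM in pre-HSC and 49.4 and 13.9 in FL-HSC, with the FL-HSC libraries far apart. The list members that fell were Cebpd, a myeloid transcription factor gene (from 24.4 ± 5.53 to 5.52 ± 2.54 FPKM), and the chemokine gene Ccl9 (from 23.6 ± 13.03 to 5.98 ± 1.05 FPKM), whose call did not hold when FL-HSC replicate 1 (limma adjusted p = 0.0641) or FL-HSC replicate 2 (0.0917) was left out. Without pre-HSC replicate 2, 4 list members fell. Against ex-HSC, S100a8 and S100a9 were lower in FL-HSC (log2 difference -1.27 ± 0.34, adjusted p = 0.0141 and log2 difference -1.66 ± 0.44, adjusted p = 0.0147), as was the cystatin gene Stfa1 (log2 difference -2.26 ± 0.47, adjusted p = 0.00394), while Elane (log2 difference 0.27 ± 0.23, adjusted p = 0.415) and Ctsg (log2 difference -0.64 ± 0.25, adjusted p = 0.0686) did not pass. The calls of S100a8 and S100a9 against ex-HSC did not hold without ex-HSC replicate 2 (adjusted p = 0.0603 and 0.0780), with FL-HSC replicate 2 left out (0.0902 and 0.101), or with a pseudocount of 0.1 (0.0875 and 0.0786), nor did that of Stfa1 with that pseudocount (0.0894). Ctsg passed, lower in FL-HSC, without ex-HSC replicate 1 (0.0176). Stfa1 belongs to a family of near copies, so its value is uncertain.

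Promoter windows of 4 genes from these groups are shown because they rose together or carry the series title: 2 red cell genes, a granule gene and Cd274. Each runs from 250 bases before to 50 after a RefSeq start (GRCm38.p6), 5′ to 3′ on the gene's strand, and capitals mark matches on either strand to 6 motifs. These were AGATAA for factors of the GATA family, TGTGGT (Runx), an interferon response motif, GAGGAAGT (PU.1), ACAATG (Sox) and CCGGAAGT (ETS). Klf1 is at chr8:84901732-84902031, plus strand, Pklr (the window of 2 that holds matches) at chr3:89135892-89136191, plus strand, Elane at chr10:79886062-79886361, plus strand, and Cd274 at chr19:29367188-29367487, plus strand.
Klf1: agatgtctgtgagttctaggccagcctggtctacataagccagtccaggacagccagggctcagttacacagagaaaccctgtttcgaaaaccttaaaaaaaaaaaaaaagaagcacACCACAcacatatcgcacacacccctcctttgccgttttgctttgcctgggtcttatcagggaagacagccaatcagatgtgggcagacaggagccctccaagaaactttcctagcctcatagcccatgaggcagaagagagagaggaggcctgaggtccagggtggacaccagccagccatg
Pklr: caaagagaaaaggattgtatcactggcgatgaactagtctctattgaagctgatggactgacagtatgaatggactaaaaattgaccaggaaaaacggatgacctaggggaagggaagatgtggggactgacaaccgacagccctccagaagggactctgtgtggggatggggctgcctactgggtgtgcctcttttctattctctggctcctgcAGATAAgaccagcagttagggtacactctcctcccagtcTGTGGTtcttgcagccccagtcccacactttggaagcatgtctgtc
Elane: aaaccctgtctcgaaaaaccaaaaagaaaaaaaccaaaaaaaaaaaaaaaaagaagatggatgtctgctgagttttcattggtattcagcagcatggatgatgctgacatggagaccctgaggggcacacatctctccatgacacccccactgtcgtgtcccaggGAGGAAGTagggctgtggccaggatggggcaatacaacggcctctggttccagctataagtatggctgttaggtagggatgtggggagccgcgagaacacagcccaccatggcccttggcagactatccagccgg
Cd274: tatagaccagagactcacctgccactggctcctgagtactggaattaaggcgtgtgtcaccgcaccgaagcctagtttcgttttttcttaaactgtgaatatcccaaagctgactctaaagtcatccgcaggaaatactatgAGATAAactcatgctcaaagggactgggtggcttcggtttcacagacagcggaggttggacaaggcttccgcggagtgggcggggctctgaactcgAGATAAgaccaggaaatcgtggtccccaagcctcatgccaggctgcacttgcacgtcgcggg
The Pklr window holds a GATA match whose first letter lies at -35 from the start site and a Runx match at 4. The other Pklr window held none. The Klf1 window holds a Runx match on the opposite strand, the Elane window a PU.1 match at -85, and the Cd274 window 2 GATA matches, at -108 and -12. Only the exact letters listed were searched, so the lack of a match does not show that a site is absent. The Klf1 window also holds ttatca, on the opposite strand TGATAA, which differs from AGATAA in its first letter and was not marked or counted. Across all 32851 windows in RefSeq 11.2% held the GATA letters, 16.8% the Runx letters and 3.20% the PU.1 letters. Single GATA or Runx matches are thus not rare, and PU.1 matches are less frequent. Among windows of genes that rose, of genes that fell and of genes tested, 7.27%, 5.93% and 6.61% held the GATA letters. For the Runx letters these shares were 14.6%, 11.2% and 12.5%, for PU.1 3.62%, 2.54% and 3.09%, and for ETS 9.19%, 3.04% and 7.68%, with 3.89% over all windows. The Sox letters were in 6.96%, 7.75% and 7.43% and the interferon response letters in 3.22%, 2.54% and 2.99%, with 12.6% and 3.44% over all windows. These are descriptions of letters in a window and were not tested.

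Other blood lineages changed in part. Over all genes tested 28.4% rose and 22.3% fell. These shares were 40.9% and 22.7% for megakaryocyte genes, whose falls were thus near the share over all genes. They were 54.5% and 9.09% for mast cell genes, 43.8% and 43.8% for lymphoid genes and 33.3% and 38.5% for cytokine receptor genes. Of 22 tested of 24 megakaryocyte genes, 9 rose, 5 fell and 8 missed the threshold, with rises in Nfe2, given above, and in Fermt3, an integrin activator gene (from 30.4 ± 11.7 to 163 ± 34.4 FPKM), and a large fall in Vwf, the von Willebrand factor gene of vessels and platelets (from 174 ± 19.5 to 13.53 ± 2.06 FPKM). Megakaryocyte genes had a median log2 fold change of 0.38, against 0.22 without FL-HSC replicate 1. Pf4, the platelet factor 4 gene, did not pass and followed the macrophage sums within each stage (129, 68.6 and 245 FPKM in pre-HSC and 114 and 35.5 in FL-HSC). Of 11 tested of 22 mast cell genes, 6 rose, 1 fell and 4 missed the threshold, and 2 fell without FL-HSC replicate 2. Mast cell genes had a median log2 fold change of 1.09. Srgn, the granule proteoglycan gene, went from 72.5 ± 19.3 to 421 ± 0.204 FPKM, and Tpsb2, a mast cell tryptase gene, rose and was at 0, 0 and 0 FPKM in pre-HSC and 2.23 and 1.32 in FL-HSC. Hpgds, the prostaglandin D synthase gene, was the 1 that fell (from 14.52 ± 5.71 to 1.73 ± 0.919 FPKM). Cpa3, the mast cell carboxypeptidase gene, did not pass and was at 0.705, 0.487 and 5.73 FPKM in pre-HSC and 2.83 and 3.44 in FL-HSC. Among 16 tested of 39 lymphoid genes, 7 rose, 7 fell and 2 missed the threshold. Lymphoid genes had a median log2 fold change of 0.24. Flt3, a receptor gene of lymphoid-primed progenitors, went from 3.16 ± 0.512 to 20.1 ± 4.61 FPKM (limma log2 change 2.33 ± 0.21, adjusted p = 0.000401). Lef1, a Wnt-linked factor gene, was at 8.38, 8.61 and 7.83 FPKM in pre-HSC and 0 and 0.0204 in FL-HSC, and Id2, an inhibitor of E-proteins, went from 81.9 ± 13.1 to 10.6 ± 6.45 FPKM. Without pre-HSC replicate 1, 4 lymphoid genes rose. Of 39 tested of 42 cytokine receptor genes, 13 rose, 15 fell and 11 missed the threshold, and 7 rose without pre-HSC replicate 1 and 7 without FL-HSC replicate 1. Cytokine receptor genes had a median log2 fold change of 0.20, against -0.14 without pre-HSC replicate 2 and 0.13 without FL-HSC replicate 2.

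Stromal genes were nearly all lower in FL-HSC. Of 38 tested of 40, 0 rose, 37 fell and 1 missed the threshold, with Thy1 the gene that did not pass. Stromal genes had a median log2 fold change of -3.04. Of 39 found in the table, 38 averaged 1 FPKM or above in pre-HSC and 11 did in FL-HSC. Many therefore reached the level for testing mainly through pre-HSC. Col3a1, a fibrillar collagen gene, stood at 129, 57.6 and 75.1 FPKM in pre-HSC and 0.211 and 0.00726 in FL-HSC (limma log2 change -6.24 ± 0.34, adjusted p = 5.67e-05), and Acta2, the smooth muscle actin gene, at 87.2, 50.2 and 60.8 FPKM in pre-HSC and 0.0717 and 0 in FL-HSC. Col15a1, a basement membrane collagen gene, stood at 78.4, 87.0 and 72.6 FPKM in pre-HSC and 0 and 0.0392 in FL-HSC (limma log2 change -6.30 ± 0.15, adjusted p = 1.16e-05) and Sparc, a matrix gene of vessels and stroma, went from 478 ± 16.1 to 8.08 ± 2.45 FPKM. Against ex-HSC, Col15a1 and Col3a1 were lower in FL-HSC (log2 difference -2.04 ± 0.23, adjusted p = 9.02e-05 and log2 difference -2.04 ± 0.39, adjusted p = 0.00263). Of 14 tested of 23 epithelial and nerve genes, 0 rose, 9 fell and 5 missed the threshold. Epithelial and nerve genes had a median log2 fold change of -1.38. In pre-HSC 13 of the 22 found in the table averaged 1 FPKM or above and in FL-HSC 2 did. Most thus reached the level for testing through pre-HSC, and a fall was the likelier call. With a filter of 5 FPKM, 4 of 5 fell. Stmn2, a gene of growing neurons, was at 64.8, 67.7 and 75.5 FPKM in pre-HSC and 0 and 0 in FL-HSC, and Krt8, a simple epithelium keratin gene, went from 11.45 ± 4.19 to 0.308 ± 0.224 FPKM. The part that other cells of the embryo had in these levels was not tested.

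Summed hepatocyte markers, given above, overlapped between the stages. Dlk1, a gene of fetal hepatoblasts and other embryonic cells, was the highest of them, at 162, 111 and 103 FPKM in pre-HSC and 101 and 84.4 in FL-HSC, and did not pass. Of 23 listed genes 6 averaged 1 FPKM or above in pre-HSC and 12 did in FL-HSC. Only 9 reached the level for testing, of which 2 rose, 0 fell and 7 missed the threshold. Rises made up 22.2%, below the 28.4% over all genes. Hepatocyte genes had a median log2 fold change of 0.47, against 0.99 without pre-HSC replicate 3, -0.27 without FL-HSC replicate 1 and with FL-HSC replicate 2 left out 1.21. Alb, the albumin gene, stood at 0.0169, 1.08 and 0.0455 FPKM in pre-HSC and 10.8 and 2.70 in FL-HSC and Hnf4a, a liver transcription factor gene, at 0.186, 0.494 and 0.654 FPKM in pre-HSC and 7.45 and 5.39 in FL-HSC. Alb rose (limma log2 change 2.34 ± 0.56, adjusted p = 0.0150), but not without FL-HSC replicate 1 (adjusted p = 0.0725) or without pre-HSC replicate 1 (0.0511). Of 17 tested of 20 macrophage genes, 2 rose, 5 fell and 10 missed the threshold. Rises made up 11.8% and falls 29.4%, beside 28.4% and 22.3% over all genes. Macrophage genes had a median log2 fold change of -1.80, against -1.16 without pre-HSC replicate 3, -3.04 without FL-HSC replicate 1 and with FL-HSC replicate 2 left out -0.49. Without FL-HSC replicate 2, 3 macrophage genes fell. Marco and Cd5l, genes of resident macrophages, rose, Marco at 0.428, 0.630 and 0.0564 FPKM in pre-HSC and 48.4 and 8.36 in FL-HSC (limma log2 change 3.99 ± 0.67, adjusted p = 0.00394) and Cd5l at 1.37, 1.03 and 1.63 FPKM in pre-HSC and 90.7 and 13.6 in FL-HSC (limma log2 change 3.97 ± 0.71, adjusted p = 0.00519). Mrc1, the mannose receptor gene, fell, at 68.8, 22.9 and 104 FPKM in pre-HSC and 4.16 and 1.29 in FL-HSC (limma log2 change -4.02 ± 0.66, adjusted p = 0.00368). The complement gene C1qa did not pass, at 104, 37.5 and 245 FPKM in pre-HSC and 69.9 and 10.6 in FL-HSC, and was highest in pre-HSC replicate 3 and lowest in FL-HSC replicate 2.

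Immediate early genes, which switch on within minutes of a signal or of handling, fell almost as a block. Of 30 tested of 31, 1 rose, 29 fell and 0 missed the threshold, and 26 to 28 fell when any of the 5 libraries was left out. Immediate early genes had a median log2 fold change of -3.04. Falls made up 96.7%, beside 22.3% over all genes. In pre-HSC 30 of the 31 averaged 1 FPKM or above and in FL-HSC 18 did, so some reached the level for testing mainly through pre-HSC. Fos, which pairs with Jun in the AP-1 factor, stood at 140.2, 96.5 and 177 FPKM in pre-HSC and 0.213 and 0.741 in FL-HSC (limma log2 change -6.54 ± 0.29, adjusted p = 2.95e-05). Fosb, its relative, stood at 41.5, 31.5 and 64.9 FPKM in pre-HSC and 0.0376 and 0.0483 in FL-HSC, Atf3, a stress factor gene, at 60.6, 38.4 and 106 FPKM in pre-HSC and 0.696 and 0.122 in FL-HSC, and Klf2, a flow-responsive factor gene, at 118, 111 and 117 FPKM in pre-HSC and 2.30 and 0.767 in FL-HSC. Every pre-HSC library was above both FL-HSC libraries for each of the 29 genes that fell, as for all 2936 genes called as falls. Jun went from 161 ± 10.1 to 6.65 ± 1.21 FPKM and Egr1 from 55.4 ± 9.27 to 2.29 ± 0.358 FPKM. Cyr61, a matricellular gene, stood at 58.4, 47.996 and 48.7 FPKM in pre-HSC and 0.272 and 0.0594 in FL-HSC. Dnajb1, a heat shock gene, rose (limma log2 change 0.78 ± 0.16, adjusted p = 0.00792), though not in the fit of all 8 libraries (adjusted p = 0.185). Fos was below its ex-HSC level too (log2 difference -5.21 ± 0.57, adjusted p = 7.39e-05), where it stood at 89.7, 17.5 and 92.4 FPKM. The time between dissection and lysis is not given for either stage, and its part was not tested.

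**Figure D4:**
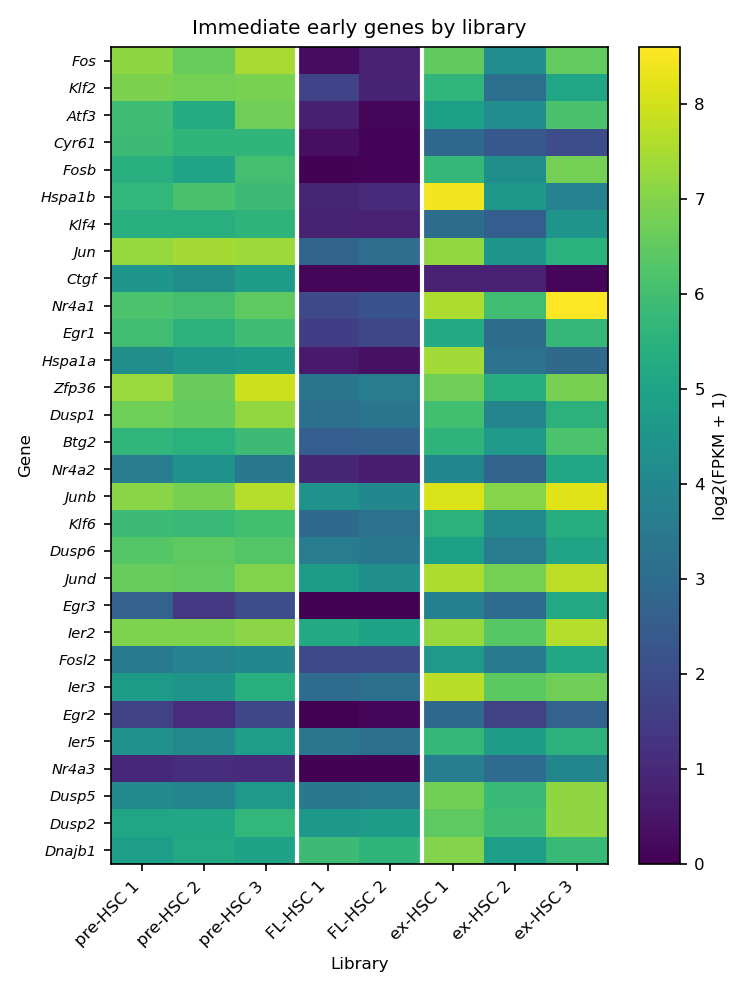
Level of 30 immediate early genes, as log2(FPKM + 1), in each pre-HSC, FL-HSC and ex-HSC library (columns), ordered by the change from pre-HSC to FL-HSC. The 2 FL-HSC columns are dark for Fos, Atf3, Fosb and Egr3, with Fos at no more than 1 FPKM, and the lowest row, Dnajb1, rose.

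A number of inflammatory genes fell too. Of 43 tested of 46 innate sensing and NF-kappaB genes, 6 rose, 17 fell and 20 missed the threshold. Rises made up 14.0% and falls 39.5%, beside 28.4% and 22.3% over all genes. These sensing and NF-kappaB genes had a median log2 fold change of -0.79, against -0.32 without pre-HSC replicate 3. The chemokine gene Ccl3 stood at 63.7, 18.1 and 96.3 FPKM in pre-HSC and 0 and 0.532 in FL-HSC (limma log2 change -5.32 ± 0.67, adjusted p = 0.00134) and Cxcl2, which attracts neutrophils, at 32.99, 12.5 and 63.7 FPKM in pre-HSC and 0 and 0 in FL-HSC. Il1b, the interleukin-1 beta gene, stood at 13.7, 3.49 and 34.5 FPKM in pre-HSC and 0.417 and 0 in FL-HSC and Cd14, a co-receptor gene for bacterial lipid, at 24.99, 8.26 and 72.1 FPKM in pre-HSC and 1.88 and 0.655 in FL-HSC. In pre-HSC all 4 were lowest in replicate 2 and highest in replicate 3, the order of the macrophage sums. FL-HSC replicate 1, with a macrophage sum above that of pre-HSC replicate 2 (646 against 312), was below that library for all 4. The part of macrophage RNA in these falls was not tested. Nfkbia, the NF-kappaB inhibitor and target gene, fell at more even levels, 50.4, 48.2 and 90.7 FPKM in pre-HSC and 12.5 and 13.2 in FL-HSC (limma log2 change -2.15 ± 0.28, adjusted p = 0.00159). The calls of Il1b and Cd14 did not hold when FL-HSC replicate 1 was left out (limma adjusted p = 0.0624 and 0.0529) or when replicate 2 was (0.0819 and 0.0835), and 10 list genes fell without the latter. Few sensing genes rose, such as Mb21d1, the gene of the DNA sensor cGAS (from 2.49 ± 0.494 to 8.68 ± 1.09 FPKM), and their count of 6 was 2 without pre-HSC replicate 1, 2 without pre-HSC replicate 2, 3 without FL-HSC replicate 1, 1 without FL-HSC replicate 2 and 2 with median-of-ratios scaling.

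Antigen presentation genes of class I rose in part. Of 20 tested of 24, 10 rose, 2 fell and 8 missed the threshold. MHC class I presentation genes had a median log2 fold change of 0.84. Psmb8, an immunoproteasome subunit gene, stood at 11.9, 7.31 and 30.3 FPKM in pre-HSC and 119 and 88.4 in FL-HSC (limma log2 change 2.79 ± 0.53, adjusted p = 0.00639), and Tap2, part of the peptide transporter, went from 3.68 ± 1.59 to 23.3 ± 1.78 FPKM (limma log2 change 2.42 ± 0.28, adjusted p = 0.00104). H2-K1, a class I heavy chain gene with near copies, went from 46.2 ± 29.5 to 149 ± 5.21 FPKM and B2m, the light chain gene, from 338, 266 and 498 FPKM to 359 and 338, without passing. Leaving out pre-HSC replicate 1, FL-HSC replicate 1 or FL-HSC replicate 2 left 6 rises each, leaving out any library but pre-HSC replicate 1 left 1 fall, and Psmb8 did not pass without FL-HSC replicate 1 (adjusted p = 0.0544), nor H2-K1 without any of these libraries (0.0581, 0.0930 and 0.0800). The class II chain genes H2-Aa, H2-Ab1 and H2-Eb1 averaged under 5 FPKM in both stages, and of 11 tested of 15, 5 rose, 0 fell and 6 missed the threshold, and 1 fell without pre-HSC replicate 2. MHC class II genes had a median log2 fold change of 1.20, and rises made up 45.5%, beside 28.4% over all genes. Of the 15, 5 averaged 1 FPKM or above in pre-HSC and 13 did in FL-HSC, and with a filter of 5 FPKM 0 of 4 rose. Among 60 tested of 65 interferon genes, 14 rose, 4 fell and 42 missed the threshold, shares of 23.3% and 6.67% beside 28.4% and 22.3% over all genes. Interferon genes had a median log2 fold change of 0.22, against 0.11 without pre-HSC replicate 2 and 0.42 without pre-HSC replicate 3. Ifitm1, a membrane antiviral gene of stem cells, went from 67.9 ± 11.7 to 344 ± 0.495 FPKM (limma log2 change 2.34 ± 0.17, adjusted p = 0.000167). The 14 rises were 5, 7 and 7 without pre-HSC replicate 1, pre-HSC replicate 2 and FL-HSC replicate 2, and 8 with median-of-ratios scaling, and the 4 falls were 7 without pre-HSC replicate 2.

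Imprinted genes, expressed from the copy of a single parent and often fetal growth regulators, mostly fell. Of 31 tested of 40, 1 rose, 23 fell and 7 missed the threshold. Imprinted genes had a median log2 fold change of -1.64. Falls made up 74.2%, beside 22.3% over all genes. In pre-HSC 31 of the 35 in the table averaged 1 FPKM or above and in FL-HSC 22 did, so some reached the level for testing mainly through pre-HSC. Mest, a growth gene of embryonic mesoderm, stood at 1549, 1687 and 1442 FPKM in pre-HSC and 11.9 and 3.18 in FL-HSC (limma log2 change -7.73 ± 0.44, adjusted p = 6.57e-05), the largest fall of the 10 named for size. Igf2, the fetal growth factor gene, went from 1546 ± 83.2 to 72.8 ± 23.03 FPKM (limma log2 change -4.43 ± 0.21, adjusted p = 3.81e-05), and H19, the non-coding RNA made from the same domain, from 3859 ± 252 to 525 ± 109 FPKM. Plagl1, a factor that controls other imprinted genes, went from 312 ± 74.97 to 4.11 ± 1.65 FPKM. The gene that rose was Slc22a18, a transporter gene (from 3.01 ± 0.490 to 7.17 ± 0.436 FPKM). Grb10, a growth inhibitor gene, kept a high level with 244, 240.1 and 198 FPKM in pre-HSC and 122 and 142 in FL-HSC (limma log2 change -0.78 ± 0.15, adjusted p = 0.00669). Peg10 was listed at 0 in pre-HSC replicate 3 and at 139 and 144 FPKM in the others, and did not pass. The difference of Mest from ex-HSC missed the threshold (log2 difference -0.30 ± 0.36, adjusted p = 0.565) but passed, lower in FL-HSC, without FL-HSC replicate 1 (adjusted p = 0.0110).

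Genes of the fetal stem cell program did not move as a group. Of 23 tested of 24, 7 rose, 10 fell and 6 missed the threshold. These fetal program genes had a median log2 fold change of -0.24. Rises made up 30.4%, near the 28.4% over all genes, and falls 43.5%, beside 22.3%. Lin28b, the RNA-binding protein gene that holds fetal blood in its fetal state, stood at 7.90, 9.09 and 7.999 FPKM in pre-HSC and 6.70 and 12.6 in FL-HSC, and its let-7-regulated partner Hmga2 at 117, 119.6 and 95.5 FPKM in pre-HSC and 81.5 and 111 in FL-HSC, and the stages overlapped for both. Hmga1, a chromatin architecture gene, went from 206 ± 18.9 to 757 ± 87.7 FPKM (limma log2 change 1.87 ± 0.15, adjusted p = 0.000220). Nfix, a factor gene linked to stem cell survival, went from 2.42 ± 0.151 to 19.1 ± 0.0354 FPKM (limma log2 change 2.56 ± 0.16, adjusted p = 9.75e-05). Gpc3, a glypican gene of embryonic tissue, fell from 75.2 ± 28.6 to 5.17 ± 0.480 FPKM, and Trim71, a stem cell ubiquitin ligase gene, was at 4.92, 5.29 and 3.08 FPKM in pre-HSC and 0 and 0.00855 in FL-HSC.

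Hox genes, which encode body position and, in the A cluster, stem cell growth, fell by cluster. Of 30 tested of 39, 2 rose, 23 fell and 5 missed the threshold. Hox genes had a median log2 fold change of -1.56. All 6 tested genes of the D cluster and all 5 of the C cluster fell, as did 6 of 8 of the B cluster, while in the A cluster 2 rose, 6 fell and 3 did not pass. Both the summed C cluster and the summed D cluster were under 1 FPKM in each FL-HSC library. Their genes therefore reached the level for testing through pre-HSC alone, and a fall was the only likely call. Of 38 Hox genes in the table, 31 averaged 1 FPKM or above in pre-HSC and 13 did in FL-HSC. The summed D cluster was 32.1, 29.5 and 29.1 FPKM in pre-HSC and 0 in FL-HSC replicate 1, and the summed A cluster was 145, 144 and 126 against 98.5 and 138. Hoxd8 was at 13.8, 13.9 and 15.04 FPKM in pre-HSC and 0 and 0 in FL-HSC and Hoxb9 at 12.3, 11.7 and 9.86 FPKM in pre-HSC and 0.323 and 0.345 in FL-HSC. Hoxa9, which promotes stem cell growth, stood at 42.6, 50.4 and 42.9 FPKM in pre-HSC and 56.2 and 71.1 in FL-HSC (limma log2 change 0.48 ± 0.15, adjusted p = 0.0410) and Hoxa7 at 15.7, 12.5 and 14.4 FPKM in pre-HSC and 18.6 and 24.3 in FL-HSC (limma log2 change 0.56 ± 0.18, adjusted p = 0.0396), and neither passed with median-of-ratios scaling (adjusted p = 0.147 and 0.0922) or without FL-HSC replicate 2 (0.149 and 0.153). Without pre-HSC replicate 1 and pre-HSC replicate 2 the adjusted p was 0.131 and 0.0540 for Hoxa9 and 0.0728 and 0.117 for Hoxa7, and without pre-HSC replicate 3 it was 0.101 and 0.0785.

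**Figure D5:**
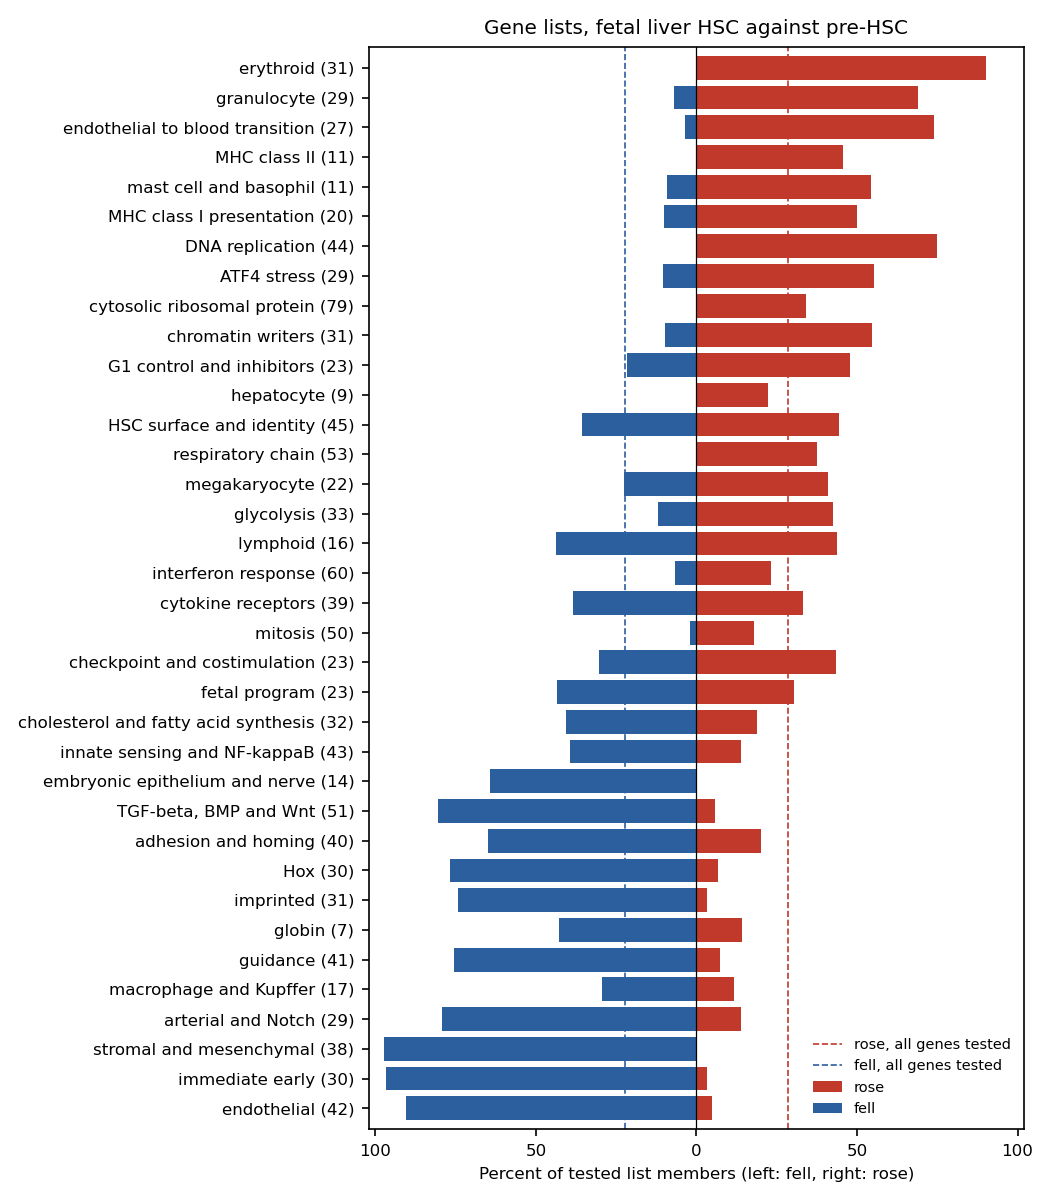
Share of tested members that rose (red, to the right) or fell (blue, to the left) in each of 36 gene lists, with the number tested in brackets and dashed lines at the shares over all genes tested (28.4% rose, 22.3% fell). Lists are ordered by their median log2 fold change, from erythroid at the top (90.3% rose) to endothelial at the bottom (90.5% fell).

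More adhesion genes fell than rose. Of 40 tested of 43 adhesion genes, 8 rose, 26 fell and 6 missed the threshold. Adhesion genes had a median log2 fold change of -1.53. Rises made up 20.0% and falls 65.0%, beside 28.4% and 22.3% over all genes. Among the rises, picked after their values were seen, Selplg, the P-selectin ligand gene of leukocytes, went from 6.73 ± 2.47 to 47.4 ± 0.276 FPKM (limma log2 change 2.70 ± 0.26, adjusted p = 0.000532), Itgb2, the beta chain gene of leukocyte integrins, from 5.25 ± 0.946 to 24.4 ± 3.71 FPKM, and Itga4, part of the VCAM1 receptor, from 7.90 ± 0.981 to 29.9 ± 7.26 FPKM. Cdh5, which encodes the cadherin of vessel junctions, stood at 454, 489 and 429.5 FPKM in pre-HSC and 11.2 and 4.78 in FL-HSC (limma log2 change -5.77 ± 0.30, adjusted p = 4.99e-05), and Cxcl12, the homing chemokine gene, at 21.8, 11.7 and 12.8 FPKM in pre-HSC and 0.0990 and 0 in FL-HSC. Among 41 tested of 43 semaphorin, plexin, ephrin and Slit pathway genes, 3 rose, 31 fell and 7 missed the threshold, led by Nrp2, a semaphorin co-receptor gene (from 86.1 ± 6.18 to 0.476 ± 0.398 FPKM), and Ephb4, the venous Eph receptor gene (from 132 ± 5.77 to 4.93 ± 0.140 FPKM). Guidance genes had a median log2 fold change of -1.79. Their falls made up 75.6%, beside 22.3% over all genes. In pre-HSC 41 of the 43 averaged 1 FPKM or above and in FL-HSC 20 did, so many reached the level for testing mainly through pre-HSC. The genes that rose were Sema4d, Plxnc1 and Sema4b, used in leukocytes (from 9.61 ± 3.003 to 30.02 ± 2.08 FPKM, from 7.31 ± 0.962 to 22.1 ± 5.78 FPKM and from 4.42 ± 1.83 to 12.1 ± 0.523 FPKM). Sema4d did not pass in the fit of all 8 libraries (limma adjusted p = 0.327), and Sema4b did not without FL-HSC replicate 1 (0.0678) or FL-HSC replicate 2 (0.0537). Of 51 tested of 56 TGF-beta, BMP and Wnt genes, 3 rose, 41 fell and 7 missed the threshold. TGF-beta, BMP and Wnt genes had a median log2 fold change of -1.52. Their falls made up 80.4%, beside 22.3% over all genes. In pre-HSC 51 of the 56 averaged 1 FPKM or above and in FL-HSC 31 did, so some reached the level for testing mainly through pre-HSC. Acvrl1, the BMP9 receptor gene of vessels, went from 60.9 ± 1.87 to 1.55 ± 1.36 FPKM (limma log2 change -4.71 ± 0.32, adjusted p = 0.000133), and Ltbp4, which stores latent TGF-beta, from 21.1 ± 2.87 to 0.378 ± 0.0237 FPKM. The rises of Fzd7, Tgfbr3 and Smad3 depended on the libraries used. Without pre-HSC replicates 1, 2 and 3 and FL-HSC replicates 1 and 2 in turn, the adjusted p of Smad3 was 0.0719, 0.0607, 0.0663, 0.0940 and 0.0157. In the same order it was 0.0738, 0.0239, 0.0474, 0.0554 and 0.0815 for Tgfbr3, and 0.0398, 0.0778, 0.0597, 0.0447 and 0.0999 for Fzd7.

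Most replication genes rose, and few mitosis genes did. Of 44 tested of 47 replication genes, 33 rose, 0 fell and 11 missed the threshold, and 28 to 34 rose when any of the 5 libraries was left out and 29 with median-of-ratios scaling. DNA replication genes had a median log2 fold change of 0.78. Pold2, a DNA polymerase delta subunit gene, stood at 64.2, 72.5 and 72.4 FPKM in pre-HSC and 334 and 279 in FL-HSC (limma log2 change 2.12 ± 0.13, adjusted p = 9.94e-05), Mcm7, a subunit of the replicative helicase, at 79.5, 82.1 and 82.1 FPKM in pre-HSC and 271 and 240.1 in FL-HSC (limma log2 change 1.64 ± 0.11, adjusted p = 0.000139), and Fen1, which trims Okazaki fragments, went from 52.2 ± 3.601 to 157 ± 41.3 FPKM. Of 50 tested of 50 mitosis genes, 9 rose, 1 fell and 40 missed the threshold, fewer than the share over all genes in both directions. Mitosis genes had a median log2 fold change of 0.06, against 0.031 without pre-HSC replicate 3 and 0.095 without FL-HSC replicate 1. Spc24, a kinetochore gene, went from 37.3 ± 4.58 to 86.6 ± 31.1 FPKM. With median-of-ratios scaling 3 mitosis genes rose and 7 fell. Without pre-HSC replicates 1, 2 and 3 in turn 3, 3 and 5 rose and 0, 0 and 3 fell, and without FL-HSC replicate 2, 15 rose and 7 fell. Anln, a contractile ring gene, was the 1 that fell (from 16.4 ± 2.67 to 10.03 ± 1.501 FPKM), and not in 3 of the 5 fits without a library (adjusted p of 0.109, 0.0867 and 0.126 without pre-HSC replicate 1, pre-HSC replicate 2 and FL-HSC replicate 1).

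Genes that govern entry into the cycle moved in both directions, with falls near the share over all genes. Of 23 tested of 27, 11 rose, 5 fell and 7 missed the threshold, with 6 rises without pre-HSC replicate 1, 7 with median-of-ratios scaling, and 3 falls without FL-HSC replicate 2. These G1 genes had a median log2 fold change of 0.49. Rises made up 47.8% and falls 21.7%, beside 28.4% and 22.3% over all genes. Cdk6, the kinase gene that starts the cycle in blood progenitors, stood at 3.12, 2.88 and 2.33 FPKM in pre-HSC and 18.3 and 17.6 in FL-HSC (limma log2 change 2.33 ± 0.18, adjusted p = 0.000193), Myc, a transcription factor gene of cell growth, went from 29.6 ± 4.18 to 133 ± 16.6 FPKM (limma log2 change 2.13 ± 0.16, adjusted p = 0.000184), and its relative Mycn from 38.7 ± 4.22 to 120.2 ± 23.2 FPKM. The inhibitor gene Cdkn1c fell, as given above, and Cdkn1a, the p21 gene, stood at 16.9, 12.8 and 36.97 FPKM in pre-HSC and 6.07 and 2.49 in FL-HSC, a call lost without FL-HSC replicate 2 (adjusted p = 0.0915). Rb1, the retinoblastoma gene, fell, with 8.90, 9.72 and 7.49 FPKM in pre-HSC and 1.10 and 0.264 in FL-HSC (limma log2 change -2.57 ± 0.27, adjusted p = 0.000695).

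Metabolic lists rose in part. Of 33 tested of 34 glycolysis and hypoxia genes, 14 rose, 4 fell and 15 missed the threshold. Glycolysis genes had a median log2 fold change of 0.38. Hk1, which commits glucose to the pathway, stood at 27.2, 28.4 and 27.1 FPKM in pre-HSC and 196 and 172 in FL-HSC (limma log2 change 2.69 ± 0.12, adjusted p = 2.74e-05), Slc2a3, which carries glucose into cells, went from 11.9 ± 1.34 to 47.6 ± 3.12 FPKM, and its relative Slc2a1 fell from 126 ± 12.2 to 43.2 ± 2.39 FPKM (limma log2 change -1.51 ± 0.13, adjusted p = 0.000313). Of 29 tested of 32 ATF4 and amino acid genes, 16 rose, 3 fell and 10 missed the threshold, among them Phgdh, the first enzyme of serine synthesis (from 49.2 ± 2.91 to 228 ± 60.3 FPKM), and Asns, which makes asparagine (from 16.8 ± 2.49 to 73.4 ± 11.95 FPKM). ATF4 genes had a median log2 fold change of 0.55. Ddit4, an inhibitor of mTORC1, fell from 59.7 ± 5.33 to 7.49 ± 1.08 FPKM. Cholesterol genes leaned down: of 32 tested of 36 sterol and fatty acid genes, 6 rose, 13 fell and 13 missed the threshold, with Cyp51, a sterol demethylase gene, going from 22.97 ± 3.25 to 8.32 ± 0.769 FPKM (limma log2 change -1.36 ± 0.17, adjusted p = 0.00131). Sterol and fatty acid genes had a median log2 fold change of -0.31. Without pre-HSC replicate 1, 8 of them fell. Rises made up 42.4% of glycolysis, 55.2% of ATF4 and 18.8% of sterol genes, beside 28.4% over all genes. Falls made up 12.1%, 10.3% and 40.6% in the same order, beside 22.3% over all genes.

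Ribosomal and respiratory chain genes had no falls, but their counts of rises depended on single libraries. Of 79 tested of 81 ribosomal protein genes, 27 rose, 0 fell and 52 missed the threshold, a share of 34.2% beside 28.4% over all genes. Ribosomal protein genes had a median log2 fold change of 0.54, against 0.28 without FL-HSC replicate 1. The 27 rises were 1 without pre-HSC replicate 1, 1 without pre-HSC replicate 2, 11 without pre-HSC replicate 3, 8 without FL-HSC replicate 1, 62 with only FL-HSC replicate 2 left out, 6 with median-of-ratios scaling, and 4 with no filter on low values. Of 53 tested of 54 respiratory chain genes, 20 rose, 0 fell and 33 missed the threshold, and the same fits gave 6, 8, 15, 8 and 34, with 7 under scaling. Respiratory chain genes had a median log2 fold change of 0.40, against 0.23 without FL-HSC replicate 1 and with FL-HSC replicate 2 left out 0.62. Their rises made up 37.7% of those tested, beside 28.4% over all genes. Sdha, a subunit of succinate dehydrogenase, rose from 120.0 ± 5.02 to 333 ± 31.5 FPKM (limma log2 change 1.46 ± 0.12, adjusted p = 0.000272). Processed copies of ribosomal genes among the largest rises were Rps18-ps3 (8.33, 2.14 and 1.68 FPKM in pre-HSC and 612 and 202 in FL-HSC), Rps2-ps13 (0.596, 0.248 and 0.599 FPKM in pre-HSC and 126 and 36.5 in FL-HSC) and Rps26-ps1 (4.95, 3.95 and 4.55 FPKM in pre-HSC and 357 and 179 in FL-HSC), and reads shared with the parent genes make these values uncertain.

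Chromatin genes leaned up. Of 31 tested of 33 Polycomb, DNA methylation and related genes, 17 rose, 3 fell and 11 missed the threshold, with 11 rises without pre-HSC replicate 1 and 11 with median-of-ratios scaling. These chromatin genes had a median log2 fold change of 0.51. Rises made up 54.8% and falls 9.68%, beside 28.4% and 22.3% over all genes. Dnmt3b, a de novo DNA methyltransferase gene, stood at 23.2, 30.5 and 25.9 FPKM in pre-HSC and 94.2 and 99.3 in FL-HSC (limma log2 change 1.84 ± 0.15, adjusted p = 0.000235), and Dnmt1, which copies methylation at replication, went from 65.9 ± 6.33 to 136 ± 9.36 FPKM. Cbx7, a Polycomb subunit that reads the H3K27 methyl mark and maintains stem cells, stood at 0.763, 0.568 and 0.981 FPKM in pre-HSC and 7.51 and 9.06 in FL-HSC (limma log2 change 2.39 ± 0.21, adjusted p = 0.000329), and Cbx6 went from 16.8 ± 2.90 to 45.6 ± 7.04 FPKM. The genes that fell were Pcgf2, Rnf2 and Phc2, all of Polycomb repressive complex 1 (from 24.1 ± 0.969 to 9.67 ± 2.72 FPKM, from 35.9 ± 4.08 to 20.2 ± 3.595 FPKM and from 83.5 ± 1.28 to 49.7 ± 6.61 FPKM).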

How the data were processed

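Poly(A) RNA of sorted cells was sequenced as 75-nt read pairs, per the labels' protocols. The authors deposited 1 table of FPKM per gene and library. The submitters' processing notes name Cufflinks, featureCounts, edgeR, DESeq and the build mm9, without roles or versions. Depth is not given in the sources used here, and whole reads could not be recovered from the FPKM steps (at most 0.47% of low genes sat at the commonest ratio between libraries), so no count test was run.

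Of 33531 rows, 27 whose names had become dates were left out. The 13194 genes that reached 1 FPKM in 2 or more of the 5 libraries were fitted on log2(FPKM + 1) with limma 3.58.1 in R 4.3.3, with a trend in the spread, using the 3 pre-HSC and 2 FL-HSC libraries. Folds on this scale understate changes of low genes. A gene under 1 FPKM in every library of 1 stage was tested through the other stage alone, so only 1 direction was likely. P-values were adjusted by Benjamini-Hochberg over all genes tested, and 0.05 was the threshold; errors of log2 fold changes are standard errors, and other errors are SD (n = 3 pre-HSC, n = 2 FL-HSC). FL-HSC was set against ex-HSC in a fit of all 8 libraries, for the 20 genes with the largest changes and Cd274. The method was tested on simulated data.

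The members and the 36 gene lists were chosen with earlier results of these data known. Genes were named by a rule: the PD-1 pathway genes and Ly6a, the 10 largest changes each way whose higher group averaged 5 FPKM or above without overlap (predicted, small RNA and pseudogene symbols left out, including those ending in -ps and a number), up to 4 called members per list, and members needed to state a count of 5 or fewer. Some genes that the rule selects are not reported here. A further 48 named genes were chosen after their values were seen: among them Runx1, Cd34, Procr, Mpo, Prtn3, Dll4, Jag1, Notch1, Notch4 and the ribosomal pseudogenes. Alternatives covered the pseudocount, filter, scaling, fit, weights, replicate block, a minimum change, isolated zeros as missing values, and each library left out. In 81 cases a gene was listed at 0 in a single library while the rest of that group stood at 10 FPKM or above. Promoter sequences came from RefSeq (GRCm38.p6), a build other than that of the files, matched by symbol.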

Additional observations from a re-analysis of the deposited data

How the results depend on the processing

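Between 2614 and 3379 genes rose and between 2358 and 2823 fell when each library was left out in turn. A minimum change of 1 on the log2 scale left 1666 rises and 2084 falls, by construction. A replicate block gave 3374 rises and 2782 falls. The labels state no pairing of replicate numbers, so the numbers were not taken as pairs. Samples with the same number deviated with correlations of -0.13 and 0.17. The deviations of the 2 FL-HSC libraries from their mean mirror each other, so these values cannot show whether the numbers are pairs. Over the 17 alternatives Cd274 stayed called, from 1.47 (without FL-HSC replicate 2) to 2.24 (pseudocount 0.1). Of 222 named genes that were called, 176 kept the call in all alternatives, 46 lost it in at least 1 and 0 reversed. List counts moved by over 1.5 times in 144 of 1224 cases. Among them were class II rises (5, against 9 with the block, 8 with quantile normalization and 0 of 4 still tested under the 5 FPKM filter). Others were macrophage falls (5, against 12 with the block) and ribosomal protein rises (27, against 0 with the block). The cause of these moves was not tested. Under the 5 FPKM filter 7, 24 and 20 Hox, stromal and guidance genes fell, of only 13, 24 and 25 still tested, against 23, 37 and 31 of 30, 38 and 41. Depth is unknown, so the counting error of low values cannot be computed.

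No named gene that passed changed sign. Against pre-HSC, the setting array weights gave log2 values of B2m 0.072, Gimap6 0.028, Ly6a -0.0078. The setting median-of-ratios scaling gave log2 values of Lin28b -0.013. The setting quantile normalization gave log2 values of Mitf 0.35. The setting replicate block gave log2 values of B2m 0.22, Ly6a -0.12, Mitf 0.12. Leaving out each library in turn gave B2m -0.23 to 0.22, Fli1 -0.24 to 0.031, Gimap6 -0.24 to 0.20, Hba-a1 -1.85 to 0.27, Hmga2 -0.43 to 0.017. The same fits gave Krt18 -0.13 to 0.0059, Lin28b -0.27 to 0.55, Ly6a -0.43 to 0.73, Mfng -0.14 to 0.023, Mitf -0.39 to 0.12. The same fits gave Slc18a2 -0.69 to 0.048, Slc4a1 -0.46 to 1.10. Against ex-HSC, the setting median-of-ratios scaling gave log2 values of Elane -0.074. The setting quantile normalization gave log2 values of Elane -0.046, Cldn5 -0.064, Kdr -0.033. Leaving out each library in turn gave Aplnr -0.33 to 0.10, Cd274 -0.48 to 0.12, Cldn5 -0.23 to 0.72, Mest -1.11 to 0.52.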
